A study of Arabidopsis thaliana with 9 samples.

Results

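Of the 22746 probe sets measured in Arabidopsis thaliana pistils, 107 had log2 signals that were lower by 2 or more (4-fold or more) after pollination with wild-type pollen than without pollination. The rule of choice set aside 12 named genes at as many of these probe sets, the stigma gene AT3G12000 among them, and no probe set with a listed gene was plastid or mitochondrial. The other 95 probe sets, 0.418% of all, are the transcripts described here. Of these, 43 had exactly 1 listed gene and can be named, 1 had several and 51 had none. The values that chose them are those of the wild-type pollen and unpollinated arrays, so the differences between these 2 groups are given as a description and not as a test.

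The pistils of all 3 groups came from plants that carry ms1 (male sterile 1) in the Ler-0 ecotype and shed no functional pollen. One group was pollinated with pollen of a triple mutant that carries the alleles myb97-1, myb101-4 and also myb120-3 (called myb pollen below), one with wild-type Col-0 pollen, and one was left unpollinated. Each group held 3 arrays, called biological replicates in the labels, and each collection pooled 100 pistils at flower stage 14. Pollination was at 9 am and lasted 8 hours, whereas the labels give no hour of collection for the unpollinated pistils. The pollinated samples therefore held Ler-0 pistil tissue together with Col-0 pollen tubes. No probe set was listed for any of the 3 mutated MYB genes, and the mutant label was therefore not checked against their transcripts.

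Before pollination, the stigma, style and transmitting tract of a mature pistil hold transcripts for receiving pollen and for defence and stress responses. After pollen lands, pollen tubes grow through the transmitting tract toward the ovules, and the pistil begins to change its own transcript population. Heat shock proteins and their co-chaperones, which recur below, keep other proteins folded and are known from heat and many other stresses. Expression arrays of this kind report hybridization to sets of short probes, here as log2 of the deposited intensity, and 1 log2 unit is a 2-fold change. In a whole pistil, fewer cells of a type and less RNA per cell cannot be told apart.

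Across the 95 probe sets the median log2 difference from unpollinated pistils was -2.48 with myb pollen (5.59-fold lower) and -2.55 with wild-type pollen (5.86-fold lower). Over all probe sets the same medians were 0.011 and 0.004. The individual differences ran from -5.73 to -1.74 with myb pollen and from -5.68 to -2.0 with wild-type pollen. With wild-type pollen, 30 of the 95 were at least 8-fold lower and 10 at least 16-fold lower, and 7 of these 30 can be named. AT3G11930 at -2.09, AT4G05070 at -2.06 and AT3G17130 at -2.06 were the named genes just inside the threshold of -2. AT2G21185 at -1.996, AT4G17245 at -1.996 and AT1G49500 at -1.99 lay just outside it.

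All 95 probe sets passed the limma test as lower with myb pollen than without pollination (Benjamini-Hochberg adjusted p under 0.05 over all 22746), against 19.2% of all probe sets. The same unpollinated arrays enter this difference and the one that chose the members. Neither the count nor the adjusted p-values of single members given below are therefore independent of the choice. Every myb pollen array lay below every unpollinated array for 92 of the 95, against 23.4% of all probe sets. With wild-type pollen the fitted call was also lower for 95 of 95, against 20.2%, which only restates the choice. At the threshold of -2, 88 of the 95 would also have been chosen with myb pollen. The 4 named genes among the other 7 were AT4G35725 at -1.93, AT3G19030 at -1.82, AT3G11930 at -1.85 and AT4G05070 at -1.97 with myb pollen.

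**Figure D1:**
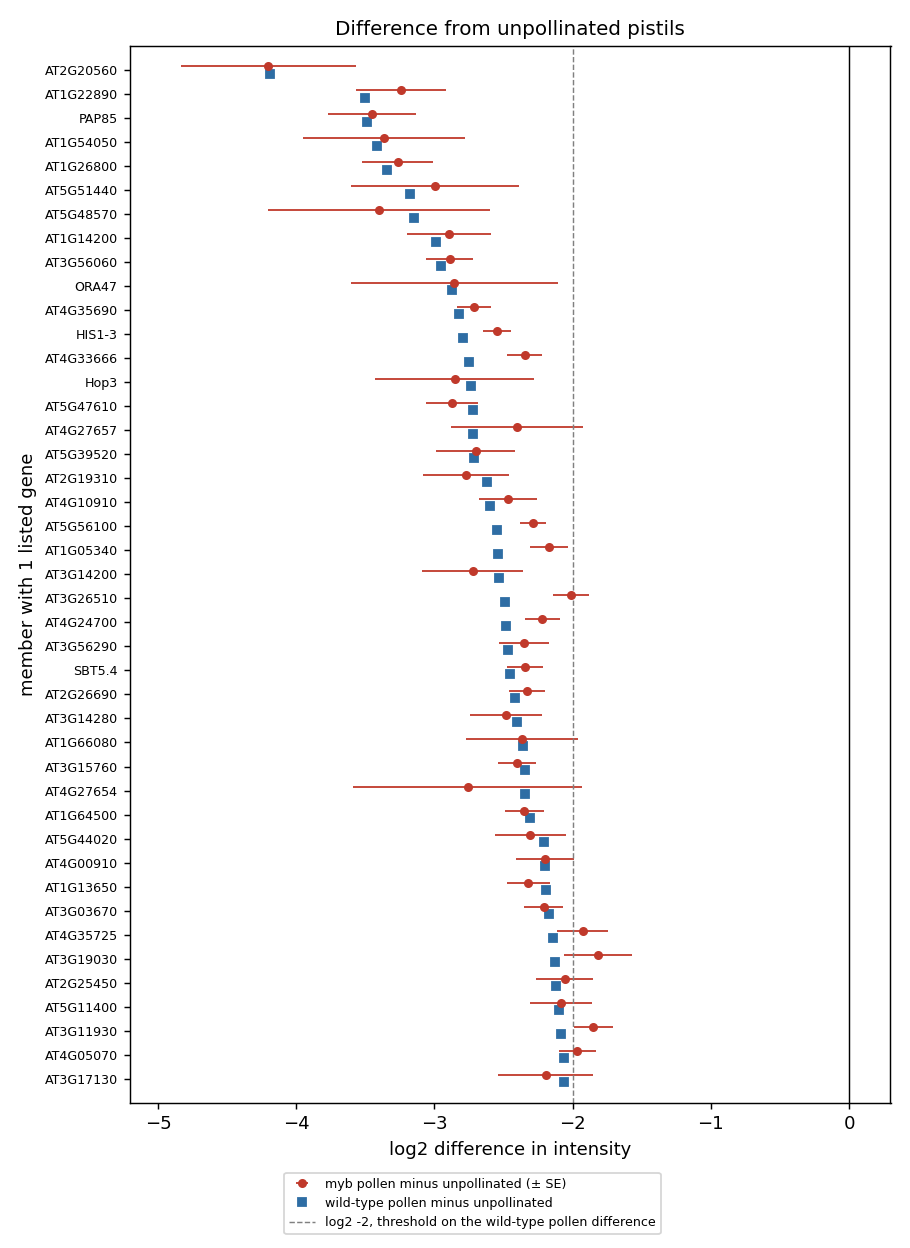
Log2 difference in intensity from unpollinated pistils for the 43 named genes, ordered by the wild-type pollen difference. Red circles are myb pollen minus unpollinated with the standard error of the limma fit (3 arrays per group), blue squares are wild-type pollen minus unpollinated, and the dashed line is the threshold of -2 on the blue values. All red circles lie between -4.20 and -1.82.

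The signal that remained after pollination differed between these transcripts. As a gauge of dim signal the lowest 25% of probe sets on each array was used, which ended at a log2 signal of 4.19 to 4.34 depending on the array. All 6 pollinated arrays lay in that range for 17 of the 95 probe sets, 9 of them named, against 22.1% of all probe sets. These 9 were PAP85, AT5G51440, AT3G56060, AT4G35690, AT5G39520, AT3G14280, AT4G00910, AT2G25450 and AT5G11400. For the other 78 at least 1 pollinated array was above it, in some by little, as for AT2G20560 (4.17 to 4.42 over the 6 pollinated arrays). In 13 of the 95, all 3 wild-type pollen arrays were even above the median of their array (6.69 to 6.87), against 48.4% of all probe sets, and AT1G54050, AT3G26510 and AT4G05070 were the named ones. The share in the dimmest range was near that of all probe sets, and without detection calls a transcript that is gone cannot be told apart from one that is reduced.

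The steepest decrease of the whole table belonged to a probe set with no listed gene, chosen for mention after its values were seen. It read 4.11, 4.11 and 4.11 with myb pollen, 4.20, 4.07 and 4.23 with wild-type pollen, and 9.98, 9.44 and 10.12 in unpollinated pistils. The 9 arrays thus formed a low set of 6 and a high set of 3 with no overlap, and the fitted difference with myb pollen was -5.73 ± 0.15 (SE, n = 3 per group, limma adjusted p = 4.87e-10). Next came another probe set without a listed gene, also picked out after its values were seen, at 4.66, 4.39 and 5.06 with myb pollen, 4.64, 4.75 and 4.87 with wild-type pollen, and 8.26, 11.77 and 10.83 in unpollinated pistils. Here the unpollinated arrays differed among themselves by over 3 log2 units, with array 1 the lowest.

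Several named genes encode chaperones or co-chaperones. AT2G20560, a DnaJ-type co-chaperone of HSP70, read 4.34, 4.30 and 4.31 with myb pollen, 4.17, 4.42 and 4.39 with wild-type pollen, and 6.63, 10.05 and 8.88 in unpollinated pistils. The 6 pollinated arrays were nearly equal and the 3 unpollinated ones were all higher, but unequally so. Its difference with myb pollen was -4.20 ± 0.63 (SE, n = 3 per group), 18.4-fold lower, with a limma adjusted p of 0.000458. This SE and p-value use a spread pooled over all 3 groups, including the close wild-type pollen arrays. With only the compared groups in the fit, the limma adjusted p was larger, at 0.00314. For the genes that follow, that fit gave 0.00602 for AT1G54050, 0.0117 for AT5G51440, 0.0216 for AT5G48570 and 0.0116 for Hop3.

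AT1G54050, a small heat shock protein of class III, read 7.04, 7.37 and 7.44 with myb pollen, 7.18, 7.33 and 7.20 with wild-type pollen, and 8.89, 12 and 11.06 in unpollinated pistils. It was 10.3-fold lower with myb pollen (-3.37 ± 0.58, adjusted p = 0.0011 by limma) while its pollinated signal stayed above the array median. AT5G51440, a small heat shock protein of mitochondria, read 3.86, 3.79 and 3.85 with myb pollen, 3.54, 3.74 and 3.67 with wild-type pollen, and 5.10, 8.43 and 6.95 in unpollinated pistils. All of its pollinated values were in the dimmest 25% of the array, and the fitted difference with myb pollen was -3.0 ± 0.61 (adjusted p = 0.0028 by limma).

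AT5G48570, the peptidyl-prolyl isomerase also called ROF2 or FKBP65, read 4.27, 4.68 and 4.15 with myb pollen, 4.67, 4.36 and 4.84 with wild-type pollen, and 5.34, 9.59 and 8.38 in unpollinated pistils. Unpollinated array 1 exceeded the highest pollinated array by little, and the other unpollinated arrays exceeded it by far more. The fitted difference with myb pollen was -3.40 ± 0.80 (adjusted p = 0.0066 by limma). Hop3, which links HSP70 and HSP90, read 4.27, 4.61 and 4.42 with myb pollen, 4.49, 4.61 and 4.54 with wild-type pollen, and 5.63, 8.77 and 7.46 in unpollinated pistils. The unpollinated arrays lay above all pollinated ones, the 2 pollen groups overlapped, and the difference with myb pollen was -2.85 ± 0.58 (adjusted p = 0.0027 by limma).

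Further named genes can be grouped with these by role, a grouping made after their values were seen. AT3G14200, with a DnaJ domain, differed by -2.72 ± 0.36 with myb pollen and -2.53 with wild-type pollen. AT2G19310, of the HSP20-like family, differed by -2.77 ± 0.31 and -2.62, and AT1G66080, a relative of the HSP70 nuclear import factor Hikeshi, by -2.37 ± 0.41 and -2.36. Unpollinated array 2 was the highest array for all 8 of these chaperone-related genes and unpollinated array 1 the lowest of its group.

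**Figure D2:**
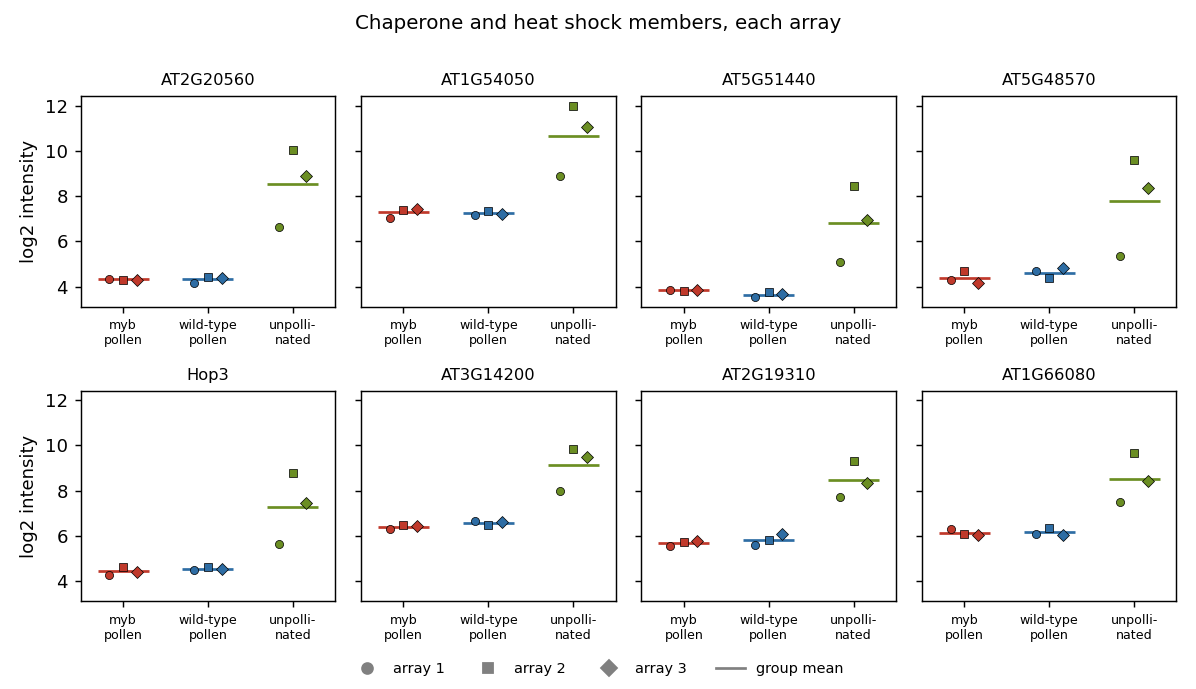
Log2 intensity on each of the 9 arrays for the 8 chaperone-related genes, with myb pollen, wild-type pollen and unpollinated groups from left to right. Symbols mark the array number within its group and lines the group mean; in each panel the 6 pollinated points are close together and the 3 unpollinated points are spread, with array 2 on top.

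A list of 38 heat shock and chaperone genes had 10 genes with a probe set of their own, 4 of which (AT2G20560, AT5G51440, AT5G48570 and Hop3) are among the 95. Of the 10, 6 passed as lower and 1 as higher with myb pollen, with the same counts for wild-type pollen. The list's median difference was -1.21 with myb pollen and -1.24 with wild-type pollen, against 0.011 and 0.004 over all probe sets. The 4 members were chosen for their fall, so these counts and medians are not independent of the choice and are no test of the list. Outside the 95, HSA32, a heat-stress protein, was lower by a log2 difference of -1.56 with myb pollen and -1.77 with wild-type pollen, and the small heat shock gene AT5G37670 by -0.86 and -0.71. AT1G53540, another small heat shock gene, was higher, by 1.01 and 0.73. AT2G29500, ATHSP22.0 and AT1G52560 did not pass, with differences of 0.09, 0.14 and -0.28 with myb pollen. Thus differences as strong as those of the 4 members were not seen for every measured heat shock gene. However, the unpollinated means were only 4.22 for ATHSP22.0, 3.98 for AT1G52560, 4.39 for AT1G53540 and 4.92 for AT2G29500. The gauge of dim signal used above ended at a log2 signal of 4.19 to 4.34. A strong fall could hardly show from such low signals, so the lack of a fall in these genes is not read as a contrast.

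The spread among the unpollinated arrays was a feature of many of the 95. Their median standard deviation was 0.168 log2 units with myb pollen, 0.146 with wild-type pollen and 0.431 in unpollinated pistils, against 0.100, 0.093 and 0.118 over all probe sets. The 3 unpollinated arrays spanned 1 log2 unit or more for 38 of the 95, against 1.71% of all probe sets. Unpollinated array 1 was at least 1 unit below arrays 2 and 3 for 21 of the 95, against 0.347% of all probe sets. Array 2 was the highest in all 21, as it was in 70 of the 79 such probe sets of the whole table. The 10 named ones of the 21 were AT2G20560, AT1G54050, AT5G51440, AT5G48570, AT1G14200, ORA47, Hop3, AT4G27657, AT3G14200 and AT4G27654. Unpollinated array 3 stood 1 unit or more below the others for 5 of the 95, against 67 of all 22746 probe sets. AT5G39520 and AT3G14280 were the named ones of these 5. A higher unpollinated mean and a wider unpollinated spread share the same arrays, so no relation between them is drawn.

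Leaving out 1 unpollinated array moved the difference with myb pollen by over 1.5-fold for 15 of the 95, 6 of them named. For AT2G20560 it was -5.15, -3.44 and -4.02 without unpollinated array 1, 2 and 3. The same values were -4.25, -2.69 and -3.16 for AT1G54050, -3.86, -2.19 and -2.93 for AT5G51440, and -3.68, -2.11 and -2.77 for Hop3. For AT5G48570 they were -4.62, -2.49 and -3.10, with limma adjusted p-values of 0.0167 and 0.0232 without array 2 and array 3. The direction held in each case, but the fold of these chaperone-related genes rests on which unpollinated pistils are counted.

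**Figure D3:**
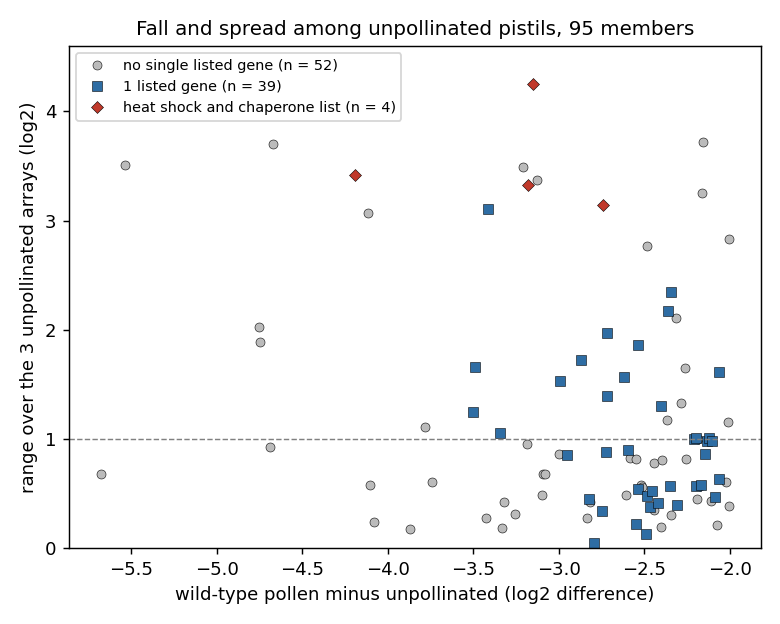
Range over the 3 unpollinated arrays (log2, vertical axis) against wild-type pollen minus unpollinated (log2 difference, horizontal axis) for the 95 probe sets. Red diamonds are the 4 genes of the heat shock list, blue squares the other named genes and grey circles the 52 probe sets without a single listed gene; 38 points lie at or above the dashed line at 1, and the red diamonds all lie above 3.

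Not all of the steep differences came with that spread. HIS1-3, a linker histone H1 variant induced by drought, read 7.14, 6.93 and 7.04 with myb pollen, 6.85, 6.95 and 6.57 with wild-type pollen, and 9.61, 9.58 and 9.56 in unpollinated pistils. The unpollinated arrays agreed to 0.05 log2 units, and the difference with myb pollen was -2.55 ± 0.10 (SE, n = 3 per group, limma adjusted p = 1.58e-08), 5.84-fold lower. AT4G35690, for which no role is given here, read 3.74, 3.58 and 3.80 with myb pollen, 3.49, 3.62 and 3.69 with wild-type pollen, and 6.56, 6.58 and 6.13 in unpollinated pistils. Its difference with myb pollen was -2.71 ± 0.12. Over the unpollinated arrays the median span was 0.85 log2 units for the 95, against 0.22 over all probe sets. In all, 27 of the 95 spanned under 0.5 log2 units on these arrays. The named ones were HIS1-3, AT4G35690, AT4G33666, AT5G56100, AT3G26510, AT4G24700, AT3G56290, AT2G26690, AT1G64500 and AT3G11930.

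The next genes, placed together by role after their values were seen, act in protein storage and turnover. PAP85, a vicilin-like seed storage protein, read 4.01, 3.66 and 3.77 with myb pollen, 3.74, 3.66 and 3.92 with wild-type pollen, and 8.10, 7.25 and 6.44 in unpollinated pistils. Its pollinated signals were all in the dimmest 25% of the array, and it was 11-fold lower with myb pollen (-3.45 ± 0.32, adjusted p = 1.44e-05 by limma). Here unpollinated array 1 was the highest of its group, unlike in the chaperone-related genes.

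AT1G26800, a RING-finger protein of the kind that acts as ubiquitin ligase, read 4.96, 4.42 and 4.49 with myb pollen, 4.47, 4.86 and 4.31 with wild-type pollen, and 7.45, 8.51 and 7.71 in unpollinated pistils. AT1G14200, of the same kind, read 7.23, 6.85 and 6.97 with myb pollen, 6.93, 6.79 and 7.04 with wild-type pollen, and 9.03, 10.56 and 10.14 in unpollinated pistils. For both genes the unpollinated arrays lay above all pollinated arrays, while the 2 pollen groups overlapped, and the genes were 9.63-fold and 7.43-fold lower with myb pollen (adjusted p = 4.14e-06 and 3.85e-05 by limma). AT5G47610, also a RING-finger gene, differed by -2.87 ± 0.19 with myb pollen and -2.72 with wild-type pollen. The subtilisin-like protease gene SBT5.4 differed by -2.35 ± 0.13 and -2.45.

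ORA47, an ERF-family transcription factor of the wound and jasmonate response, was the named regulator of transcription among the steepest. It read 4.47, 5.03 and 7.33 with myb pollen, 4.42, 5.76 and 6.61 with wild-type pollen, and 7.52, 9.24 and 8.64 in unpollinated pistils. The values of each group spanned over 1 log2 unit, and array 3 with myb pollen came within 0.2 units of unpollinated array 1 without passing it. The difference with myb pollen was -2.86 ± 0.75 (adjusted p = 0.0115 by limma). AT4G27654 and AT4G27657, of which no role is given, were picked out after their values were seen. AT4G27654 read 3.49, 4.12 and 6.40 with myb pollen, 3.96, 5.21 and 6.08 with wild-type pollen, and 5.89, 8.24 and 8.15 in unpollinated pistils, so unpollinated array 1 lay inside the pollinated range. Its difference with myb pollen, -2.76 ± 0.83 (adjusted p = 0.0219 by limma), did not pass without unpollinated array 2 (-2.35, adjusted p = 0.0763), without unpollinated array 3 (-2.40, 0.0674), or without myb pollen array 1 (-2.17, 0.0833) or 2 (-2.48, 0.0717). AT4G27657 read 4.05, 4.02 and 5.39 with myb pollen, 3.81, 4.33 and 4.38 with wild-type pollen, and 5.80, 7.77 and 7.10 in unpollinated pistils, so it spanned over 1 log2 unit with myb pollen and in unpollinated pistils but not with wild-type pollen. In the TAIR10.1 annotation AT4G27654 and AT4G27657 are neighbours, with 0 protein-coding genes between them. A range of 1 log2 unit or more in both pollen groups was seen for 4 of the 95, ORA47 and AT4G27654 being the named ones, against 0.141% of all probe sets.

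**Figure D4:**
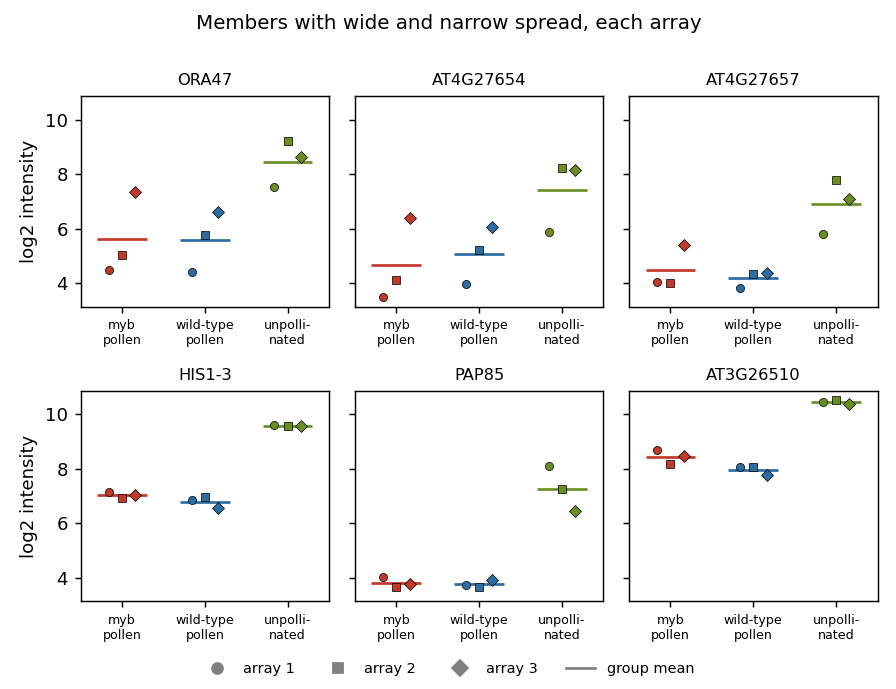
Log2 intensity on each of the 9 arrays for 6 named genes, with myb pollen, wild-type pollen and unpollinated groups from left to right, symbols for the array number and lines for the group mean. ORA47 and AT4G27654 (top) spread within all groups, AT4G27657 less with wild-type pollen, and in these 3 genes array 1 is the lowest unpollinated point; HIS1-3 and AT3G26510 have nearly equal unpollinated points, and PAP85 has its array 1 highest.

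AT1G22890, of which no role is given, had the second steepest named difference with wild-type pollen. It read 5.28, 4.40 and 4.70 with myb pollen, 4.97, 4.41 and 4.22 with wild-type pollen, and 8.27, 8.54 and 7.29 in unpollinated pistils. The lowest unpollinated array lay over 2 log2 units above the highest pollinated one, the 2 pollen groups overlapped, and the difference with myb pollen was -3.24 ± 0.33 (9.45-fold lower, adjusted p = 2.86e-05 by limma). AT3G56060, of the glucose-methanol-choline oxidoreductase family, read 3.52, 3.52 and 3.57 with myb pollen, 3.46, 3.41 and 3.57 with wild-type pollen, and 6.36, 6.89 and 6.04 in unpollinated pistils. It was 7.41-fold lower with myb pollen (-2.89 ± 0.17), and its pollinated signals were among the dimmest.

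The other enzymes, wall proteins and transporters, also placed together by role after their values were seen, are given by their differences. Among proteins of the wall and extracellular space, the class III peroxidase gene AT3G03670 differed by -2.21 ± 0.14 with myb pollen and -2.17 with wild-type pollen, and AT3G17130, an inhibitor-family gene of invertases and pectin methylesterases, by -2.20 ± 0.34 and -2.06. AT5G44020, of the acid phosphatase family, differed by -2.31 ± 0.26 and -2.21. Among transporters, AT2G26690 of the nitrate and peptide transporter family differed by -2.33 ± 0.13 and -2.42, and AT4G00910 of the aluminium-activated malate transporter family by -2.20 ± 0.21 and -2.20. AT2G25450, a dioxygenase of glucosinolate side-chain modification, differed by -2.06 ± 0.21 and -2.12, and the glutaredoxin-family gene AT1G64500 by -2.35 ± 0.14 and -2.31. The protein kinase gene AT5G11400 differed by -2.09 ± 0.22 and -2.10.

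Further genes with a known family or domain are given one by one. AT1G05340, a small cysteine-rich CYSTM protein, differed by -2.17 ± 0.14 with myb pollen and -2.54 with wild-type pollen. AT3G11930, of the universal stress protein family, differed by -1.85 ± 0.14 and -2.09, and AT4G05070, of a wound-responsive family, by -1.97 ± 0.14 and -2.06. AT3G26510, with a PB1 domain, differed by -2.01 ± 0.13 and -2.49. The remaining named genes, for which no role is given, were AT4G33666, AT5G39520, AT4G10910, AT5G56100, AT4G24700, AT3G56290, AT3G14280, AT3G15760, AT1G13650, AT4G35725 and AT3G19030. Their differences ran from -2.70 for AT5G39520 to -1.82 for AT3G19030 with myb pollen, and from -2.75 for AT4G33666 to -2.13 for AT3G19030 with wild-type pollen. The 43 named genes lay on all chromosomes, with 9, 5, 11, 10 and 8 on chromosomes 1 to 5.

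Pollen of the myb triple mutant was compared with wild-type pollen because the study asked which changes in the pollinated pistil depend on the 3 MYB factors of the pollen tube. None of the 95 probe sets passed the limma test of myb pollen against wild-type pollen in either direction, against 0.312% of all probe sets (0.0264% higher and 0.286% lower with myb pollen). At an unadjusted p under 0.05 there were 8, of which 6 were higher and 2 lower with myb pollen, against 4.79% of all probe sets (2.13% higher and 2.66% lower). The members' median difference was 0.06, against 0.00 over all probe sets, and the range was -0.42 to 0.90. The wild-type arrays also chose the members, so a wild-type mean that is low through array error enters this difference as a positive value. It was above 0 for 60 of the 95, against 49.9% of all probe sets.

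The largest of these differences among named genes was that of AT3G26510, singled out after its values were seen. It read 8.70, 8.18 and 8.47 with myb pollen, 8.06, 8.08 and 7.78 with wild-type pollen, and 10.47, 10.52 and 10.39 in unpollinated pistils. All 3 myb pollen arrays lay above all 3 wild-type pollen arrays and below the unpollinated ones. The difference of 0.48 ± 0.13 (SE, n = 3 per group) had an unadjusted p of 0.0041 and a limma adjusted p of 0.450, so it did not pass. The other named genes with an unadjusted p under 0.05 were AT4G33666 at 0.40 ± 0.13, AT1G05340 at 0.37 ± 0.14, AT5G56100 at 0.27 ± 0.09 and HIS1-3 at 0.25 ± 0.10, with limma adjusted p-values of 0.697, 0.931, 0.857 and 0.998.

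How far equal levels were bounded differed between genes. The 95% interval of myb pollen minus wild-type pollen lay within 1 log2 unit of 0 for 74 of the 95, 34 of them named, and within 0.5 units for 30. For HIS1-3 it ran from 0.02 to 0.47, and for AT4G35690 from -0.16 to 0.38. It was far wider for AT5G48570, from -2.04 to 1.53, for ORA47, from -1.65 to 1.68, and for AT4G27654, from -2.26 to 1.43. These intervals use a spread pooled over all 3 groups. The unpollinated spread therefore widens them for the chaperone-related genes, whose pollinated arrays were close together.

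**Figure D5:**
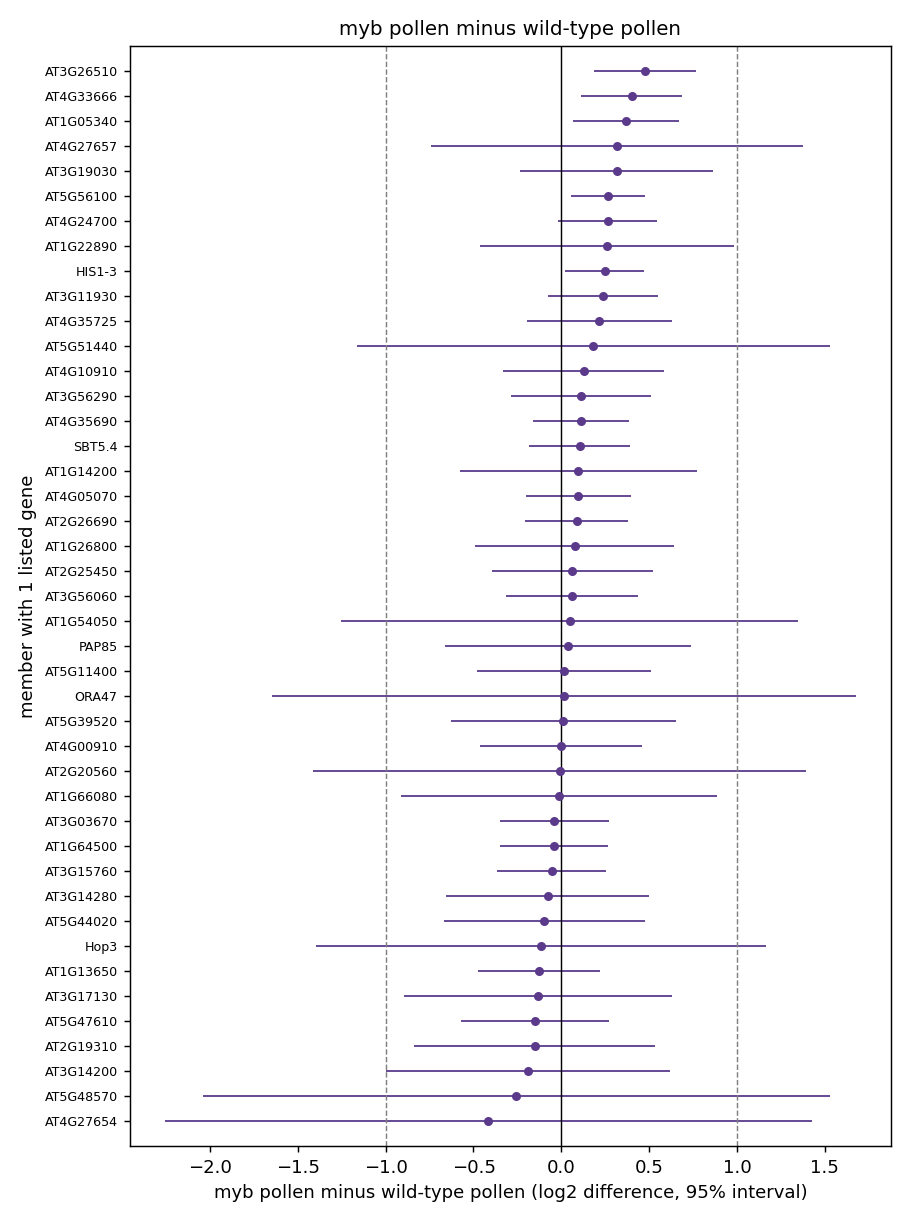
Difference of myb pollen minus wild-type pollen (log2) for the 43 named genes, ordered by size, with the 95% interval of the limma fit (3 arrays per group). Dashed lines mark -1 and 1; 34 of the intervals stay between them, and that of AT3G26510, the topmost, runs from 0.19 to 0.76.

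Markers and other gene lists were set beside these results, in each case with counts for myb pollen and then for wild-type pollen against unpollinated pistils. All 10 measured pollen tube genes of 12 were higher in both comparisons. Their summed intensity was 14036 to 17028 with myb pollen, 14788 to 18430 with wild-type pollen and 187.2 to 244.9 in unpollinated pistils, and the part of added pollen tube RNA in the differences of the 95 was not tested. Of 16 stigma, style and transmitting tract genes 6 were measured. AT3G12000, which was set aside above, was lower (-4.08 and -4.13), SPT was higher (0.64 and 0.71), and NGA1, NGA2, NGA3 and NGA4 did not pass. The summed intensity of all 6 was 578.4 to 603.3 with myb pollen, 579.5 to 605.8 with wild-type pollen and 729 to 1028 in unpollinated pistils. This sum includes AT3G12000, at log2 signals of 8.23 to 8.95 in unpollinated pistils and 4.14 to 4.67 in pollinated ones. AT3G12000 was the only 1 of the 6 that passed as lower, so the sum is not read as a fall of the list. Of the carpel and ovule list 2 of 10 genes were measured: the ovule gene INO did not pass, and CYP78A9 was lower with myb pollen (-0.40) and higher with wild-type pollen (0.49), the only gene of any list that passed between the 2 kinds of pollen (-0.90, adjusted p = 0.0225 by limma). The nectary gene SWEET9, 1 of 6 in its list, did not pass, at -0.73 and -0.44. Of 8 stamen, petal and tapetum genes 3 were measured, with 1 lower and 1 higher with myb pollen and none with wild-type pollen, and summed intensities of 35.5 to 35.8, 34.1 to 37.4 and 34.3 to 36.5 in the 3 groups.

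The clock gene GI, the single measured gene of 16 in the evening list, was higher in pollinated pistils, by 0.97 with myb pollen and 1.12 with wild-type pollen. AT5G52660, the single measured gene of 13 in the morning list, did not pass. The other genes of both clock lists had no probe set of their own in the annotation. Whether any of them are among the described probe sets without a listed gene was not tested. The result for AT5G52660 is therefore not read as a result for the morning list. With the hour of collection of the unpollinated pistils not in the labels, the part of time of day in the results was not tested. Of 31 nuclear photosynthesis genes 4 were measured, of which 3 were lower with myb pollen and 4 with wild-type pollen, LHCB4.2 by -1.24 in both. Of 17 abscisic acid, cold and drought genes 4 were measured. COR15A (1.90 and 1.80), COR15B (2.46 and 2.51) and LTI30 (1.12 and 1.02) were higher and COR47 was lower (-1.18 and -1.33), so genes of this list did not move one way. The flavonoid gene DFR, 1 of 10, was higher (1.45 and 1.62), and of 22 cuticle and wax genes 2 were measured, with WSD1 lower (-0.51 and -0.42). Of 19 genes of carbon starvation and darkness AT3G15450 was measured, at -0.53, which did not pass, with myb pollen and -1.20 with wild-type pollen. The jasmonate gene JMT, 1 of 13, did not pass (-0.42 and 0.11).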

How the data were processed

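RNA of 9 pistil collections was amplified and biotin-labelled with the Affymetrix 3' IVT kit named in the labels' protocols, and hybridized to expression arrays. The deposited table held 1 linear-scale intensity for each probe set and array. RMA, Expression Console and Partek are named by the submitters' processing notes, with no version. The planned fit needed log2 values, so log2 of the deposited intensity was taken. Detection calls were not used here, and absence of a transcript is not claimed for dim probe sets. Precision is limited by 3 arrays per group. All columns of per-sample values were used.

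Of 22810 probe sets, 64 controls were left out, and log2 values of the other 22746 entered limma (version 3.58.1, R 4.3.3) as 1 model with a mean for every group. Adjustment by the Benjamini-Hochberg method was done within each of 3 comparisons. Standard errors (SE) come from this model, which had 6 residual and 4.24 prior degrees of freedom. It was tested on simulated data in which each probe set had the same spread in all groups. The members had a wider median spread in unpollinated pistils, a case that the simulation does not cover. Genes were named where the platform annotation lists exactly 1 gene, with RefSeq names of TAIR10.1. All 43 such members matched, and organelle genes could not be screened among unlisted probe sets.

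The members and 14 gene lists were chosen with earlier results of these data known. Values on each array were planned for the 12 steepest named members, members in a list, any member past the test between the 2 kinds of pollen, and the 5 with the widest unpollinated range. Genes singled out beyond this rule are marked as such. The fit had no replicate block: deviations of same-numbered arrays of different groups correlated at -0.16 to 0.31 over probe sets, and nothing in the labels ties them. Alternatives were other scalings, a filter on dim probe sets, other variance settings, the block and leaving out each array.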

Additional observations from a re-analysis of the deposited data

How the results depend on the processing

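All 95 members counted as lower with myb pollen in most settings. The count was 91 with a trended and robust variance, 94 with only the compared groups in the fit, and 92 to 95 when 1 array was left out. No member passed between the 2 kinds of pollen in any setting. The fit with the replicate block gave 95 members lower with myb pollen, 95 with wild-type pollen and 0 between the pollens, with median differences of -2.48 and 0.06. The block changed no call of a member, and no paired result is read from it, since the numbers do not pair the arrays. Over all probe sets, the share of higher among those called between the pollens was 13.4% with the block, against 8.45% without it. The number of members was 124 with array medians subtracted, 114 after quantile normalization was repeated, and 84 to 127 when 1 array was left out. Of the 95, 88, 80 and 91 stayed without unpollinated array 1, 2 and 3. The median difference with myb pollen was -2.59 with array medians subtracted and -2.58 with repeated quantile normalization, and -2.62 to -2.38 with 1 array left out. That between the pollens was -0.01 to 0.09 with 1 array left out, the lowest without wild-type pollen array 1. Subtracting array medians also moved the median of all probe sets with wild-type pollen to -0.133, and the share of higher among called probe sets with myb pollen to 35%, against 53.8% before and 43.8% with repeated quantile normalization. Of 645 recalculated differences of named members with myb pollen, 640 kept direction and call. The other 5 were all of AT4G27654, which also did not pass with trended and robust variance (adjusted p = 0.0637 by limma); the cause was not tested. The heat shock list, which includes 4 members, had 6 or 7 genes lower in each setting, an alternative chosen after seeing the data. With 3 arrays per group and no detection calls, small differences between the pollens and the floor of dim probe sets are not resolved.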
